A study of Caenorhabditis elegans with 2 samples.

Results

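The 75 chaperone and cyclophilin genes described here are the protein-coding genes of the WBcel235 annotation (the ce11 build of Caenorhabditis elegans) whose names start with hsp-, dnj-, cct- or cyn-, among 19973 protein-coding genes on the nuclear chromosomes. There were 22 hsp genes (heat shock proteins), 29 dnj genes (J-domain proteins), 8 cct genes (subunits of the cytosolic chaperonin) and 16 cyn genes (cyclophilins). They were examined in chromatin immunoprecipitation sequencing (ChIP-seq) of EGL-13, a SoxD-type HMG-box transcription factor. Sheared chromatin of whole L1 larvae was precipitated with an antibody against GFP per the description of the samples, while their antibody field names egl-13. The animals were hermaphrodites of the transgenic strain GOU883, which stably carries EGL-13 with a GFP-FLAG tag at its C terminus, collected 6 h after synchronization by starvation of hatched larvae that followed bleaching. The study had 1 group of 2 biological replicates, numbered 3 and 4, and no condition was compared with another. The 2 libraries are from whole animals, so a site cannot be placed in a cell type, and the lists used here do not give their read depth.

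A site was a summit of the authors' optimal list, the 2294 regions kept after a test of reproducibility between ranked lists (IDR), and it was assigned to a gene when it lay between 1000 bp upstream and 200 bp downstream of a transcript 5′ end. The 4 name families were selected on the same readout, since earlier results of these data had shown hsp, dnj and cyn names among those with sites more often than other genes. The counts below therefore describe these genes and carry no test. The strength of a region is given as the authors' signal value, on a scale that the labels and files do not state, and rank 1 is the strongest region of a list.

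Chaperones bind unfolded or partly folded proteins and keep them from aggregating. HSP70 proteins do so in cycles of ATP hydrolysis that J-domain proteins start and nucleotide exchange factors end, HSP90 acts later on selected clients, the CCT ring encloses actin, tubulin and other clients, and cyclophilins speed the isomerization of peptide bonds before proline. In C. elegans, as in other eukaryotes, heat shock factor (HSF-1) binds arrays of nGAAn units in the promoters of many of these genes, and separate stress responses act on the mitochondrial and the endoplasmic reticulum (ER) members.

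Sequences of 7 sites are shown first because they hold the sequence that, of those searched, differed most in frequency between these sites and other promoter sites, the heat shock element unit: GAANNTTC (2 nGAAn units head to head) or TTCNNGAA (2 units tail to tail). Both are their own reverse complement, so each was found on either strand at once, and they can overlap each other. Matched units are in capitals. All sequences are from the RefSeq genome of the WBcel235 (ce11) build, run 5′ to 3′ on the strand of the named gene, reach 50 bp to each side of the summit, and avoid transcribed exons. The positions are IV:17278522-17278622 (plus strand) for hsp-1, V:14685709-14685809 (plus strand) for hsp-90, III:8447110-8447210 (minus strand) for hsp-110, II:11545461-11545561 (plus strand) for dnj-13, II:8185161-8185261 (plus strand) for cct-1 and V:15187732-15187832 (minus strand) for cyn-7. The last one holds all 220 bp between the divergent genes hsp-16.2 and hsp-16.41, at V:1804958-1805177 on the plus strand.
hsp-1: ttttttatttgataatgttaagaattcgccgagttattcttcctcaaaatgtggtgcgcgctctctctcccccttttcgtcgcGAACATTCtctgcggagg
hsp-90: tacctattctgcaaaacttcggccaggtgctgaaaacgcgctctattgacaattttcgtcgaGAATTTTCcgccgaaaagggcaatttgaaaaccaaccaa
hsp-110: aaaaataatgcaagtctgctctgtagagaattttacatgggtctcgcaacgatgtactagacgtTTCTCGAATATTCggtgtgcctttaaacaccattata
dnj-13: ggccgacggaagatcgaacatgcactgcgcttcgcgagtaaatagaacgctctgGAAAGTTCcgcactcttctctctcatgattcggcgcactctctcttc
cct-1: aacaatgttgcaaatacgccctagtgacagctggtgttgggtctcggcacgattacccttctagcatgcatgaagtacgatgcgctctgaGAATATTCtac
cyn-7: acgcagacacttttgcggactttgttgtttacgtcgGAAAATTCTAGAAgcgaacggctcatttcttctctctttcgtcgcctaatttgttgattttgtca
hsp-16.2 and hsp-16.41: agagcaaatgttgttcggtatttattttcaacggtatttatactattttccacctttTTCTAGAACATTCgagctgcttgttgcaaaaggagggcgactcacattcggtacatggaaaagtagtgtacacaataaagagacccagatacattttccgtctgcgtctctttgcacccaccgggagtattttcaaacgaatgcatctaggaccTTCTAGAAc

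At the sites of hsp-90, hsp-110, cct-1 and cyn-7 the nearest 5′ end is that of another gene. In hsp-110 and cyn-7 a unit of each kind overlapped, which gives 3 alternating nGAAn units in a row. The hsp-16.2 and hsp-16.41 region held 3 units, a pair of which overlapped at the hsp-16.2 end, with the remaining one beside hsp-16.41. The overlapping pair lies more than 100 bp from the summit and was not counted for this site below. The 2 units counted there are the one beside hsp-16.41 and a GAANNTTC that runs on past the last base shown into hsp-16.41, whose bases are not printed.

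For comparison, 3 sites of organelle chaperones are shown with CCAAT, the box bound by NF-Y in other eukaryotes, in capitals (ATTGG where it is on the other strand). They were chosen because they hold it, and the remaining mitochondrial and ER sites, of dnj-10 and dnj-29, have none within 50 bp. They are III:1619070-1619170 (plus strand) for hsp-60, V:4827113-4827213 (minus strand) for hsp-6 and X:6092125-6092216 (minus strand) for hsp-3, and none of them holds a heat shock element unit within these bases. The hsp-60 site has a pair of CCAAT boxes, and hsp-6 and hsp-3 have 1 each. The box was not particular to organelle chaperones. It was also within 50 bp at 2 of 3 cytosolic J-domain sites (dnj-12 and dnj-19) and at the cyn-10 site, which are not shown.
hsp-60: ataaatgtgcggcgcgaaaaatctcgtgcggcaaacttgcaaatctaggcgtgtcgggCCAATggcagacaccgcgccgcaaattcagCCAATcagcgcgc
hsp-6: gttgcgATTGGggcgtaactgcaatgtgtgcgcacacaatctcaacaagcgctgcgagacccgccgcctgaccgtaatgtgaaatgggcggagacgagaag
hsp-3: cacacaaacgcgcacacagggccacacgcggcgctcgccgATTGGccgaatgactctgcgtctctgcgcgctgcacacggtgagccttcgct

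EGL-13-GFP sites lay at 28 of the 75 genes (37.3%), against 8.4% of all 19973 protein-coding genes. By family they lay at 8 of 22 hsp genes (36.4%), 10 of 29 dnj genes (34.5%), 5 of 8 cct genes (62.5%) and 5 of 16 cyn genes (31.2%). By role the share ran from 0 of 7 to 3 of 3. The role classes are more numerous and mostly smaller than the families, so the ranges cannot be compared. The role classes were chosen with earlier results of these data known, and most are small. All 3 constitutive cytosolic chaperones (hsp-1, hsp-90 and hsp-110) and all 3 cytosolic J-domain genes of the DNAJA and DNAJB type (dnj-12, dnj-13 and dnj-19) had a site, as did 5 of the 8 CCT subunits and 2 of the 3 cytosolic cyclophilins. The mitochondrial class had 3 of 6, the heat-induced cytosolic class 2 of 7, the ER class 2 of 9 and the nuclear cyclophilins 2 of 9. The 2 heat-induced genes share the same site, and most of the others lie in identical copies, described below, without a summit in any list. None of the 7 other small heat shock genes had a site, and the 20 genes outside these classes had 6. These shares depend on sites shared with a nearer gene. When each site went only to its nearest 5′ end, the counts were 1 of 3 constitutive, 2 of 3 J-domain, 0 of 8 CCT, 1 of 3 cytosolic cyclophilin, 1 of 6 mitochondrial and 1 of 7 heat-induced genes, with ER genes and nuclear cyclophilins at 2 of 9 each. Named classes of 3 to 9 genes give coarse shares, and their differences were not tested.

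**Figure D1:**
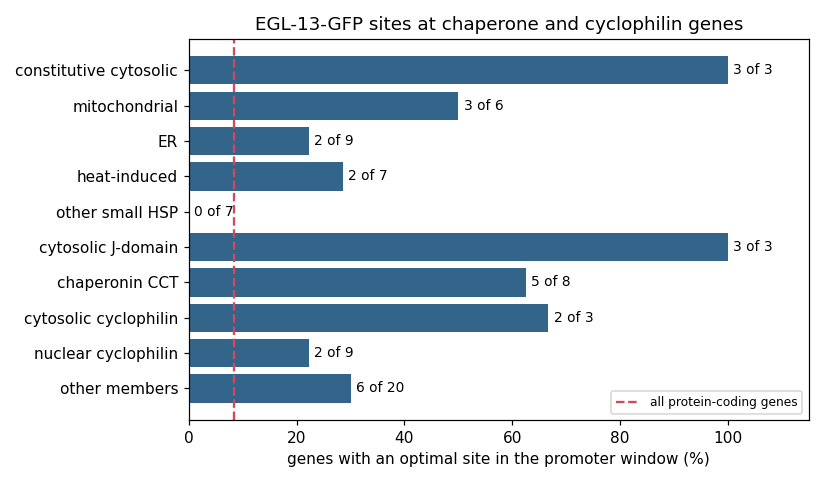
The percentage of genes with an EGL-13-GFP optimal site in the promoter window (horizontal axis) for each role class of chaperone and cyclophilin genes, with the number of genes beside each bar; the dashed line is the 8.4% of all protein-coding genes. The constitutive cytosolic and cytosolic J-domain classes are at 3 of 3 and the other small heat shock class at 0 of 7. Sites shared with a nearer gene are counted, and the heat-induced genes with a site share the same site.

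The count changed little with the promoter window. It was 27 of 75 with 500 bp upstream, which leaves out hsp-60 (6.68% of all genes), 29 with 2000 bp upstream (10.9%) and 27 when only the 5′ end of the gene record was used, which leaves out hsp-90 (7.74%). It was 24 with the stronger 50% of sites (5.06% of all genes), 27 with the 2294 strongest regions of replicate 3 alone (8.23%), 27 with those of replicate 4 alone (7.95%) and 26 with sites found among the strongest of both replicates (5.93%). When each site was given only to its nearest 5′ end it was 13 (17.3%), against 6.08% of all genes. Over all 30000 pooled regions, which include background, it was 53 (70.7%), against 42.8% of all genes.

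The 28 genes had 28 distinct sites between them, since hsp-16.2 and hsp-16.41 share 1 and dnj-28 has 2. These sites were stronger than the other 1272 promoter sites of the list. Their median signal value was 183.5, against 110 for the other promoter sites, and their median rank was 433.5, against 1005.5. In the stronger 50% of the list were 24 of 28 (85.7%), against 712 of 1272 (56%). Among the strongest regions of both replicates were 26 of 28 (92.9%), against 851 (66.9%). The median rank of the matching region was 471 in replicate 3, against 1008.5 for the other promoter sites, and 305 in replicate 4 (27 sites with a summit within 100 bp), against 1003.

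**Figure D2:**
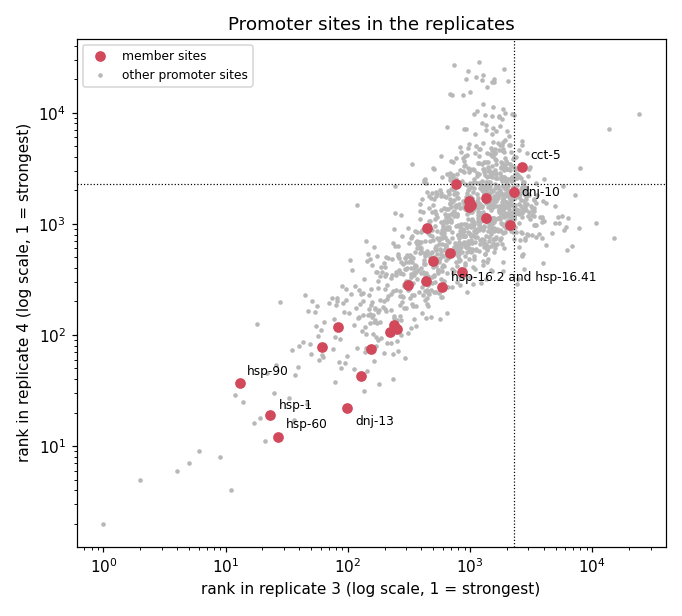
Rank of the matching region in replicate 3 (horizontal) and replicate 4 (vertical), both on log scales with 1 the strongest. Only promoter sites with a summit within 100 bp in both replicates are drawn, which leaves out dnj-12. Replicate 4 had such a summit at 1209 of the 1272 other promoter sites. Red points are the sites of chaperone and cyclophilin genes and grey points other promoter sites, and dotted lines mark the length of the optimal list, 2294. The red points run along the same diagonal as the grey ones, and the cct-5 site lies beyond both lines, at 2680 and 3263.

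The constitutive cytosolic class held some of the strongest sites of the experiment. At hsp-1, the constitutive HSP70, the signal value was 348.5 in replicate 3 and 227.3 in replicate 4, ranks 23 and 19, and the pooled site was rank 19 of 2294 with its summit 387 bp upstream. At hsp-90, the cytosolic HSP90, it was 380.9 in replicate 3 and 180.7 in replicate 4, ranks 13 and 37, with a pooled rank of 23. At hsp-110, which exchanges the nucleotide of HSP70, it was 186.3 in replicate 3 and 141.6 in replicate 4, ranks 155 and 74, with a pooled rank of 118. All 3 sites were thus near the top of both lists. The hsp-90 summit lies in an intron of its own gene record, 401 bp upstream of the nearest annotated 5′ end of the gene, and 274 bp upstream of the divergent gene C47E8.4. The hsp-110 summit is 251 bp upstream of hsp-110 and 193 bp upstream of rpn-3, a proteasome subunit gene on the other strand, while hsp-1 had no other gene within reach of its site.

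The cytosolic J-domain proteins, which deliver clients to HSP70, all had sites among the 456 strongest. At dnj-13, a DNAJB1-type protein, the signal value was 223.2 in replicate 3 and 220.2 in replicate 4, ranks 99 and 22, and the pooled rank was 43. At dnj-19, of the DNAJA type, it was 152.4 in replicate 3 and 121.9 in replicate 4, ranks 253 and 114, with a pooled rank of 182. At dnj-12, also of the DNAJA type, the region of replicate 3 had 100.9 (rank 566) and the pooled rank was 456. Replicate 4 had no summit within 100 bp of that one, and its strongest region in the dnj-12 window (72.01, rank 387) had its summit 52 bp upstream of the gene, where the pooled summit is 200 bp upstream. The dnj-13 summit lies in an intron of dhgd-1, and the dnj-19 summit in a UTR at the start of nhr-47, a nuclear receptor gene.

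Of the 8 CCT subunits, 5 had a site, and their ranks were spread over the whole list. At cct-1 the signal value was 264.1 in replicate 3 and 140 in replicate 4, ranks 62 and 78, with a pooled rank of 57. At cct-8 it was 202 and 175.3 in replicates 3 and 4, ranks 129 and 43, with a pooled rank of 84. At cct-7 it was 140.8 and 84.35 in replicates 3 and 4, ranks 313 and 283, with a pooled rank of 277. The sites of cct-6 (pooled rank 1363) and cct-5 (pooled rank 2191) were much weaker, and cct-5 was in the top 2294 of neither replicate. All 5 sites lay between the chaperonin gene and a divergent gene on the other strand, 232 to 480 bp upstream of the cct gene, and in each the 5′ end of that other gene was nearer: 188 bp for mig-5 at cct-1, 163 bp for Y55F3AR.2 at cct-8, 147 bp for T10B5.4 at cct-7, 49 bp for alh-9 at cct-6 and 261 bp for F25F2.1 at cct-5. With the nearest 5′ end as the rule the CCT count was therefore 0 of 8. The other subunits had weak pooled regions in the window, with signal values of 34.58 at cct-2, 22.26 at cct-4 and 22.09 at cct-3.

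In the mitochondrial class the sites ran from the strongest of all chaperone sites to weak ones. At hsp-60, the mitochondrial chaperonin, the signal value was 340.6 in replicate 3 and 252.1 in replicate 4, ranks 27 and 12, and the pooled site was rank 14. Its summit is 622 bp upstream of hsp-60 and 191 bp upstream of the divergent gene Y22D7AL.10, which encodes the 10 kDa co-chaperonin that caps it, so the 2 partners share the site. At hsp-6, the mitochondrial HSP70, it was 59.05 in replicate 3 and 40.24 in replicate 4, ranks 1356 and 1138, with a pooled rank of 1113 and the summit 403 bp upstream. That summit is nearer to the divergent gene C37H5.5, 197 bp upstream of it. At dnj-10, a mitochondrial J-domain protein, the signal value was 42.3 and 29.64 in replicates 3 and 4, ranks 2278 and 1946, with a pooled rank of 1816. The remaining genes, hsp-75 (the TRAP1 homolog), dnj-15 and dnj-21, had no pooled region in the window. Each of them follows another gene on the same strand at a short distance, 99 bp after R151.8, 108 bp after rnp-3 and 217 bp after T19B4.5. The gene dnj-10, which has a site, also follows a same-strand gene, 388 bp after gpr-1. Whether such neighbours bear on the absence of a site was not tested.

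In the ER class, hsp-3 and hsp-4 both encode BiP, the ER HSP70, and only hsp-3 had a site. At hsp-3 the signal value was 162.1 in replicate 3 and 124.2 in replicate 4, ranks 220 and 106, and the pooled rank was 169, with the summit 42 bp upstream. At hsp-4 the pooled and replicate 3 lists had no region in the window, and replicate 4 had 1 of 10.18 (rank 26792 of 30000). The other ER gene with a site was dnj-29, a SEC63 homolog of the translocation channel, with 117.3 in replicate 3 and 80.54 in replicate 4, ranks 437 and 305, and a pooled rank of 378. Its window overlaps those of fld-1 and ndua-2. The strongest region outside the optimal list at any of the 75 genes was at dnj-7, the DNAJC3 homolog, with a pooled signal value of 55.1 (rank 2945). The pooled values of the other ER genes were 35.32 at cyn-5, 28.06 at dnj-1, 22.88 at dnj-27 and 22.38 at cyn-6, and dnj-20 had no pooled region.

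The heat-induced class comprises the hsp-16 genes, small heat shock proteins of the alpha-crystallin type, and hsp-70. The divergent pair hsp-16.2 and hsp-16.41 shared a site, with 98.55 in replicate 3 and 86.31 in replicate 4, ranks 592 and 269, and a pooled rank of 411. Its summit lies 14 bp upstream of hsp-16.41 and 207 bp upstream of hsp-16.2. The pairs hsp-16.1 with hsp-16.48 and hsp-16.11 with hsp-16.49 lie in inverted copies of 1325 bp each (V:9087293-9088617 and V:9089280-9090604), which were identical at all 1325 bases. No summit of any of the 4 lists lay in either copy. How reads that fit both copies were handled is not given in the sources used here, so its part in this absence was not tested. At hsp-70, the inducible HSP70, no list had a region in the window.

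Among the cyclophilins, cyn-10, the homolog of a spliceosomal cyclophilin, had the strongest site, with 235.8 in replicate 3 and 120.3 in replicate 4, ranks 83 and 117, and a pooled rank of 90. Pooled ranks were 480 at cyn-3 and 573 at cyn-7, both small cytosolic cyclophilins, 506 at cyn-4, the homolog of a U-box cyclophilin of the nucleus, and 564 at cyn-1. These 4 sites were similar in strength, with replicate 3 values of 77.55 to 116.2 and replicate 4 values of 46.08 to 73.61. The genes cyn-3 and cyn-7 are neighbours on chromosome V and had separate sites, with bath-36 between them. The cyn-7 summit is 404 bp upstream of cyn-7 but nearer to bath-36 on the other strand, 106 bp upstream of it. The third cytosolic cyclophilin, cyn-2, had a pooled region of 32.79 only.

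The remaining sites were at J-domain genes outside these classes. The site of dnj-9 had a pooled signal value of 275.9 (rank 189), with 155.7 in replicate 3 and 118.4 in replicate 4. The others were weaker, with pooled values of 112.4 at dnj-22, 109 at dnj-28, 108.6 at dnj-11, a zuotin-type ribosome-associated J-domain protein, and 80.87 at dnj-14, the cysteine string protein of synaptic vesicles. A divergent gene was nearer to the summit at dnj-22, dnj-11 and dnj-14. These were natc-1 at 73 bp (dnj-22 at 166 bp), F38A5.2 at 185 bp (dnj-11 at 286 bp) and glit-1 at 191 bp (dnj-14 at 340 bp). The dnj-28 window also held a second site, 94 bp upstream of the gene at rank 1117, beside the first at 301 bp and rank 1019. The first was nearer to the divergent gene supr-1, at 273 bp.

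**Figure D3:**
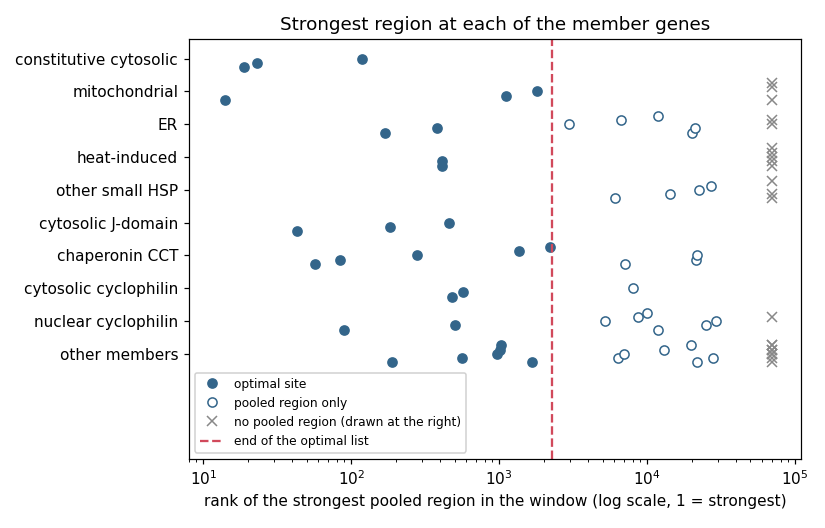
Rank of the strongest pooled region in the promoter window of each of the 75 genes (horizontal, log scale, 1 the strongest), by role class; filled circles are genes with an optimal site, open circles genes with a weaker pooled region, crosses genes with none, drawn at the right edge, and the dashed line marks the end of the optimal list at 2294. Constitutive cytosolic and cytosolic J-domain genes lie at ranks 19 to 456, and the open circles start at 2945.

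All 28 genes had the summit of their strongest site upstream of the nearest 5′ end of the gene, at 14 to 622 bp with a median of 246.5 bp. Of the 1649 other genes with a site, 96.1% had it upstream, with a median distance of 244 bp. These genes shared their sites more often. The site was shared with the window of another gene at 21 of the 28 genes (75%), against 859 of 1649 other genes (52.1%), and the gene had the nearest 5′ end at 13 (46.4%), against 1202 (72.9%). A site in several windows had more chances of being counted for a chaperone or cyclophilin gene. Genes were also grouped by their upstream neighbour, a gene within 500 bp upstream or one overlapping the 5′ end, as at hsp-90, dnj-13 and hsp-70. Of the 21 chaperone and cyclophilin genes with such a neighbour on the opposite strand, 13 had a site (61.9%), against 17.6% of the other protein-coding genes so placed. Of the 21 with a same-strand neighbour, 4 had a site (19%), against 5.75%. Of the 33 with no such neighbour, 11 had a site (33.3%), against 7.23%. Opposite-strand neighbours so defined were present for 28% of the 75 genes, against 13.1% of the others. Which gene of a shared promoter a site belongs to cannot be told apart in these data.

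**Figure D4:**
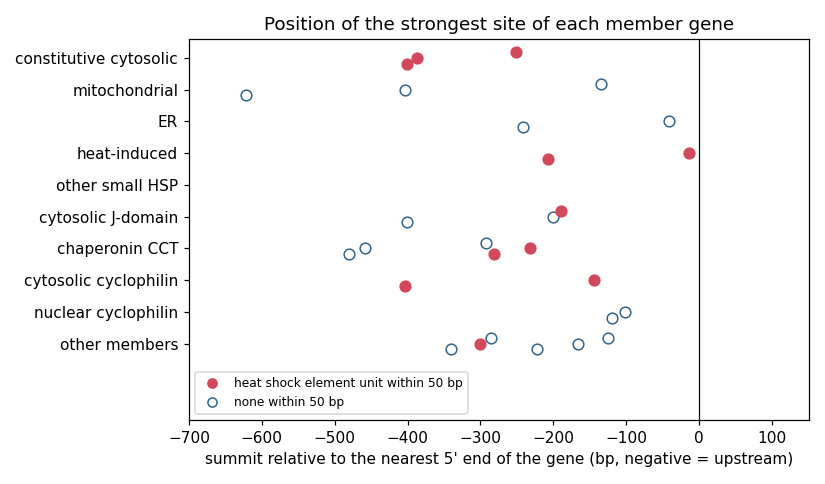
Distance of the summit of the strongest site from the nearest 5′ end of the gene (horizontal, in bp, negative upstream) for the 28 genes with a site, by role class; filled red circles have a heat shock element unit within 50 bp of the summit and open circles have none. All summits lie 14 to 622 bp upstream, and the mitochondrial and ER rows hold no red circle.

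A heat shock element unit lay within 50 bp of the summit at 10 of 28 sites of these genes (35.7%), against 94 of 1272 other promoter sites (7.39%). GAANNTTC was at 8 sites (28.6%), against 4.01% of the other promoter sites, and TTCNNGAA at 5 (17.9%), against 3.93%. In all 2294 optimal sites either unit was at 8.37%, and in the 27706 weaker pooled regions at 11.4%, so the units were not frequent at EGL-13-GFP sites in general. The window mattered to the count: within 25 bp there were 7 sites (25%), against 3.77%, and within 100 bp 17 sites (60.7%), against 17.1%. Among the stronger 50% of sites the unit was at 9 of 24 (37.5%), against 7.30% of the other promoter sites.

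The 10 sites with a unit within 50 bp were those of hsp-1, hsp-90, hsp-110, dnj-13, cct-1, cct-6, cyn-3, cyn-7, dnj-28 and the pair hsp-16.2 and hsp-16.41. Their roles were mostly cytosolic. All 3 constitutive sites, both cytosolic cyclophilin sites and the heat-induced site had one within 50 bp. The CCT sites had one there at 2 of 5 and the cytosolic J-domain sites at 1 of 3. Within 100 bp, where 17.1% of the other promoter sites had one, all 5 CCT sites and all 3 cytosolic J-domain sites did. The 3 mitochondrial sites had 0 within 50 bp and 2 within 100 bp (hsp-60 and dnj-10). The 2 ER sites and the 2 nuclear cyclophilin sites had none within 100 bp. The unit nearest to a summit was 1 bp away at cyn-3, 4 bp at dnj-28, 5 bp at cyn-7, 7 bp at dnj-13, 8 bp at hsp-16.2 and hsp-16.41, 15 bp at hsp-90 and 18 bp at hsp-110. At hsp-1, cct-1 and cct-6 it was 36, 43 and 47 bp away, and at hsp-60, cct-5, cct-7, cct-8, dnj-10, dnj-12 and dnj-19 between 65 and 81 bp.

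Promoters of these genes held the unit with or without an EGL-13-GFP site. In the 300 bp upstream of the gene record it was found at 16 of 28 genes with a site (57.1%) and at 20 of 47 without one (42.6%), against 33.1% of other genes with a site and 31.9% of other genes without one. All 8 CCT genes and all 7 heat-induced genes had a unit there, whether or not they had a site. The heat-induced genes are not 7 separate promoters. The genes hsp-16.2 and hsp-16.41 share the bases between them, and the other hsp-16 genes lie in the identical copies. A match shows that these letters are present, not that a factor binds.

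CCAAT lay within 50 bp of the summit at 6 of 28 sites (21.4%), against 14.5% of the other promoter sites: those of hsp-60, hsp-6, hsp-3, dnj-12, dnj-19 and cyn-10. The SOX core AACAAT was at 4 (14.3%), against 6.21%: cct-1, dnj-9, cyn-4 and dnj-22. None of these 4 had it within 25 bp. GAGAGA and GACGCA, which earlier results of these data had shown near EGL-13-GFP summits, were at 4 sites (14.3%), against 22.3%, and at 2 sites (7.14%), against 18.2%. GACGTG, the core bound by the ER stress factor XBP-1 in mammals, was at 1 site, that of dnj-19, against 4.56% of the other promoter sites. All were searched on both strands. The median GC content within 50 bp was 46% at these sites, against 47.5% at the other promoter sites. No tRNA, snoRNA, snRNA or rRNA gene lay within 200 bp of these summits, against 4.64% of the other promoter sites, and 2 of the 28 sites (7.14%) were on X, against 16.6%.

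**Figure D5:**
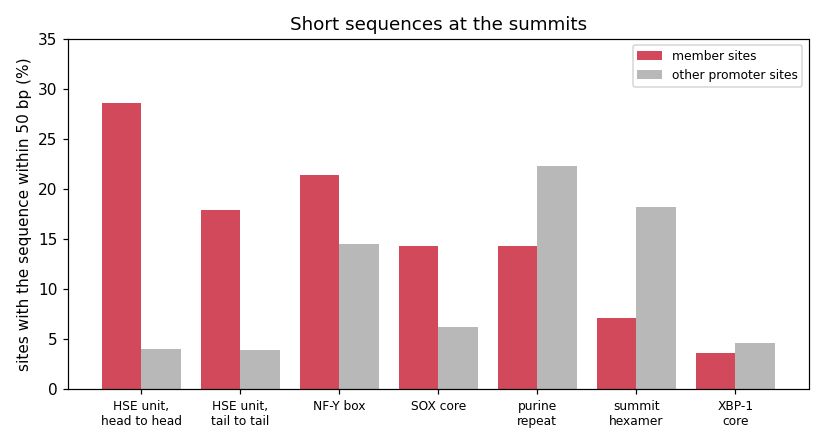
Percentage of sites with each short sequence within 50 bp of the summit (vertical axis), for the 28 sites of chaperone and cyclophilin genes (red) and 1272 other promoter sites (grey). From left to right stand the 2 heat shock element (HSE) units, CCAAT as the NF-Y box, AACAAT as the SOX core, GAGAGA as the purine repeat, GACGCA as the summit hexamer and GACGTG as the XBP-1 core. The heat shock units are at 28.6% and 17.9% of the red sites, against 4.01% and 3.93% of the grey ones.

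Over all 30000 pooled regions, background included, 53 of the 75 genes (70.7%) had one in the window, against 42.8% of all protein-coding genes. Of the 47 genes without a site, 25 had a weaker pooled region in the window and 22 had none. Outside the constitutive, heat-induced, mitochondrial and ER classes, the strongest of these regions were at cyn-13 (39.98, rank 5186), hsp-17 (36.93, rank 6086), dnj-23 (36.08, rank 6394), dnj-30 (34.7, rank 7006) and cct-2 (rank 7070). Among the 75 genes, the weakest site inside the optimal list was that of cct-5, at 67.64, and the strongest region outside it that of dnj-7, at 55.1. By distance, the farthest summit inside the window was that of hsp-60 at 622 bp, and the nearest beyond its upstream limit was at dnj-2, 1090 bp upstream with a signal value of 138.6.

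Genes of the same pathways that carry other names were counted from 5 lists, 46 genes in all, of which 20 had a site (43.5%), against the same 8.4% of all genes. These lists too were chosen with earlier results of these data known, so the share is no independent support. Sites shared with a nearer gene are counted, and the lists were not recounted by nearest 5′ end. Of the 12 co-chaperones of HSP70 and HSP90, HSF-1 included, 3 had one: bag-1 (324.6, rank 119), sti-1 (243, rank 244) and sgt-1 (67.39, rank 2198). Prefoldin, which hands nascent actin and tubulin to CCT, had a site at 5 of 6 genes, led by pfd-1 (247.2), pfd-5 (181.2) and pfd-4 (138.6). The FK506-binding proteins, the other large family of peptidyl-prolyl isomerases, had 2 of 8, fkb-6 (99.16) and fkb-1 (97.46). ER folding and unfolded protein response genes had 8 of 12, led by crt-1 (272.2), enpl-1 (191.9) and pdi-6 (167.5), which encode calreticulin, the ER HSP90 and a disulfide isomerase. The mitochondrial list had 2 of 8, Y22D7AL.10 at the hsp-60 site and C34C12.8 (300.9), a GrpE homolog that exchanges the nucleotide of mitochondrial HSP70. At the 19 sites of these lists that are not sites of the 75 genes, a heat shock element unit lay within 50 bp at 3 (15.8%) and CCAAT at 8 (42.1%), where the shares at promoter sites other than those of the 75 genes were 7.39% and 14.5%.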

How the data were processed

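ChIP-seq of EGL-13-GFP was done on 2 libraries of 1 group. The authors deposited region lists on ce10 and ce11 in narrowPeak format: 30000 regions, background included, for each replicate and for the pooled replicates, and an optimal list that passed an IDR threshold. Calling used a control alignment, per the deposited file descriptions. For caller, aligner and threshold, the sources used here give no name or value. The deposited lists give each region a signal value, on a scale not given, used here only to rank within a list, a −log10 q value, deposited by the authors and not used to rank because it is tied at its highest value for many regions, and a summit offset used to place the summit. All 2294 optimal regions were the 2294 strongest pooled ones, so a site can rest on 1 replicate. Depth is unknown and no interval is given.

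Only ce11 lists were used; all regions lay within the WBcel235 chromosomes. Genes came from Ensembl release 115, without the mitochondrial genome, and sequences from the RefSeq copy of WBcel235. Ensembl gives hsp-16.1 and hsp-16.48 to 2 records each, so the 75 records have 73 names; the copies carry their RefSeq names hsp-16.11 and hsp-16.49. A replicate supported a site where its summit lay within 100 bp among its 2294 strongest regions. The members, role classes and gene lists were chosen with earlier results of these data known, and classes rest on general knowledge of the proteins; no test was run. Genes named were all members with a site, all members of the constitutive, heat-induced, mitochondrial and ER classes, the 5 strongest others without a site, and the 3 strongest of each related list; cct-3, cct-4, cyn-2 and dnj-2 were named after their values were seen. Counting was tested on simulated data. Python 3.11.15, NumPy 2.4.6, pandas 2.3.3 and matplotlib 3.10.9 were used. Alternatives varied the promoter window, the list, the replicates and the motif window.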

Additional observations from a re-analysis of the deposited data

How the results depend on the processing

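Of 157 results recomputed under another setting, 125 stayed near their main value and 32 moved. Changes such as 8 to 12 hsp genes over all pooled regions, or 3 to 2 mitochondrial genes with 500 bp upstream, were counted as near. The 8 cct genes entered the total both as a family and as a class, and counts that stayed at 0 entered as near. When each site went only to its nearest 5′ end, 6.08% of all protein-coding genes had a site. Counts were then 13 of 75 genes, 3 of 22 hsp, 6 of 29 dnj and 0 of 8 cct. By class they were 1 of 3 constitutive, 1 of 6 mitochondrial, 1 of 7 heat-induced, 1 of 3 cytosolic cyclophilin and 3 of 20 outside the classes. With all pooled regions, 42.8% of all protein-coding genes had one. The counts were 53 of 75 genes (70.7%), 19 of 29 dnj (65.5%), 8 of 8 cct and 14 of 16 cyn (87.5%). By class they were 7 of 9 ER (77.8%), 4 of 7 other small heat shock (57.1%), 8 of 9 nuclear cyclophilin (88.9%) and 12 of 20 others (60%). With the stronger 50% of sites cct had 3 of 8 (37.5%), against 5.06% of all genes. Within 100 bp of the summit TTCNNGAA was at 12 of 28 sites (42.9%, against 9.20% of other promoter sites), CCAAT at 12 (42.9%, against 28.1%), AACAAT at 11 (39.3%, against 210 of 1272), GACGCA at 4 (14.3%, against 23.3%) and GACGTG at 4 (14.3%, against 7.47%). Within 25 bp GAANNTTC was at 5 (17.9%, against 2.12%), GACGCA at 1 (3.57%, against 11.5%), AACAAT at 0 (against 2.12%) and GACGTG at 0 (against 2.59%). The share with a heat shock element unit was 60.7% within 100 bp and 57.1% of genes in the 300 bp upstream. That upstream window, and the stronger 50% of sites for this unit, were chosen after seeing the data. Using replicate 3 or replicate 4 alone gave 27 genes with a site each time. No paired analysis was possible because there is 1 group. With 2 libraries of unknown depth, a gene without a site is one with no site detected here.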
